A study of Mus musculus with 6 samples.

Results

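Endoderm kept for 6 passages on mesenchyme 2 is set here against endoderm kept for 6 passages on mesenchyme 1. The comparison rests on 4 of the 6 arrays in the series, 2 for each culture, taken by their sample labels and by no measured value. Every sample descends from mouse embryonic stem cells of strain R1 that carry a Sox17-GFP construct. Over 6 days, Activin A and Wnt3A turned the cells into definitive endoderm, and cells positive for the reporter were collected by fluorescence-activated sorting. They were then passaged in co-culture on mesenchyme 2, passaged in co-culture on mesenchyme 1, or taken unpassaged as P0, with gelatin as the culture condition. The labels state that reporter-positive cells were isolated by sorting before RNA was taken. They do not state from which tissue either mesenchyme came. P0, with 2 arrays, serves below as a further level and enters the estimate of spread.

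The 2 arrays of each group are technical duplicates, in the words of the design text. Each culture is therefore 1 sample measured by 2 arrays, and every p-value below measures only the spread between these arrays. A difference between any pair of cultures cannot be told apart from a difference between the mesenchymes.

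Endoderm is the germ layer that lines the gut and forms the liver, pancreas and lung. Definitive endoderm arises in the primitive streak under Nodal signalling, which Activin A stands in for in culture, and leaves the pluripotent state as it does so. A separate lineage, extraembryonic endoderm, forms parietal endoderm, which lays down a thick basement membrane, and visceral endoderm, which absorbs and secretes plasma proteins. The lineages share Sox17, Gata and Foxa factors, and they are told apart by the genes that accompany these factors. Gut mesenchyme is known to send growth factor signals to the epithelium that lies on it.

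Values are normalized intensities as the authors deposited them, on a linear scale. A level is the geometric mean of the 2 arrays of a group, and a difference is the log2 level on mesenchyme 2 minus that on mesenchyme 1, ± the standard error of a limma fit over all 6 arrays. A gene was called, and is said to have risen or fallen, at a Benjamini-Hochberg adjusted p under 0.05 and a change of at least 2-fold. Array medians were 134.9 and 135.5 on mesenchyme 2, against 127.8 and 127.6 on mesenchyme 1. Log2 intensities correlated at 0.994 and 0.993 between duplicates of mesenchyme 2 and of mesenchyme 1, and at 0.875 to 0.876 between arrays of the different mesenchymes. No detection call entered the analysis, so an intensity near the low end of the table may lie at background, and levels of different probes are not compared as amounts. In such bulk samples, fewer cells of a type and less RNA per cell cannot be told apart.

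Sox17, whose reporter the sort selected on, is given first. Every group was sorted on it, so the labels set no order between the groups for this gene. Its transcript gave 722 and 679.9 on mesenchyme 2, against 83.2 and 80.5 on mesenchyme 1, and 103 and 90.6 in P0. Both arrays of mesenchyme 2 lay above the other 4, and the difference from mesenchyme 1 was 3.10 ± 0.0994 (8.56-fold, limma adjusted p = 1.77e-06). The other Sox17 probe of the array differed by 3.10 as well. Pou5f1, the central factor of pluripotency, gave 1023 and 1014 on mesenchyme 2, against 2371 and 2192 on mesenchyme 1, a fall of 2.24-fold with no overlap of arrays (-1.16 ± 0.0925, adjusted p = 4.5e-05). Nanog, its partner, gave 1699.6 and 1568 on mesenchyme 2, against 2136 and 1874 on mesenchyme 1, and its difference of -0.29 ± 0.111 was under 2-fold (adjusted p = 0.0492). Cdh1, the cadherin of epithelia, stood at 1008 on mesenchyme 2, 1133 on mesenchyme 1 and 937 in P0 and was not called (-0.17 ± 0.101, adjusted p = 0.175). Sox2 (-0.69 ± 0.11) and the enzyme Gapdh (-0.67 ± 0.0871) were lower by less than 2-fold at their brightest probes. Another, dimmer Sox2 probe stood at 36.1 on mesenchyme 2 and 226 on mesenchyme 1 and was called lower (-2.65). The actin gene Actb stood at 1428 on mesenchyme 2, 1410.3 on mesenchyme 1 and 4217 in P0. The analysed table names no probe for Foxa2, Cxcr4 and Epcam, which define definitive endoderm, nor for Pdx1, Col1a1, Col3a1 or Pdgfrb. The name endoderm comes from the labels and the sort. Of the genes taken to define definitive endoderm, Sox17 was the one measured. Beside it, Pou5f1 and Nanog signals were high on both mesenchymes.

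Between the cultures, 2132 of 8396 genes and unnamed probes were called (25.4%), 1167 higher on mesenchyme 2 (13.9%) and 965 lower (11.5%). The rises reached further than the falls. At least 4-fold, 307 were higher and 138 lower, while at log2 differences from 1 to 1.5 in size 585 were higher and 591 lower. All 2132 called features had non-overlapping arrays, but so had 7156 of all 8396 (85.2%). Against P0, 1573 features were called on mesenchyme 2 (18.7%) and 460 on mesenchyme 1 (5.48%), both set against the same P0 arrays. The share called was 31% in the 25% of features with the lowest intensity and 19% in the 25% with the highest, and the median spread between duplicates was 0.187 and 0.0721 (log2 SD) in the same sets. The scatter of levels shows the called genes on either side of the diagonal.

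**Figure D1:**
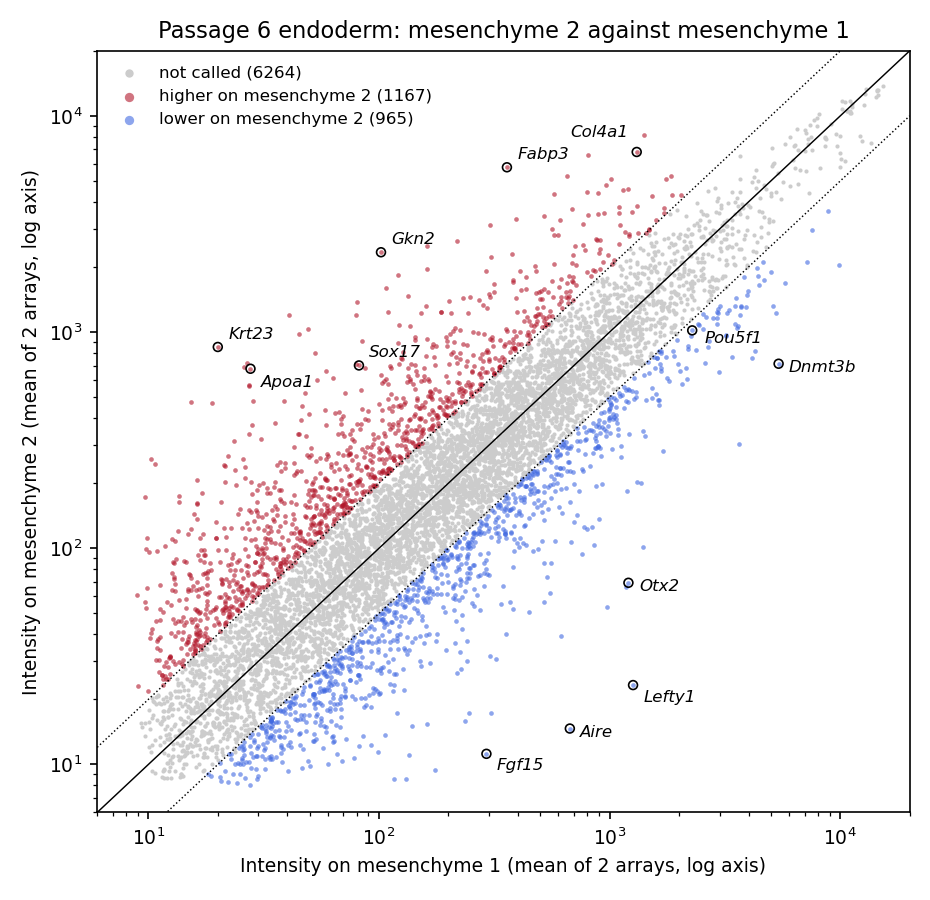
Mean normalized intensity on mesenchyme 2 (vertical) against mesenchyme 1 (horizontal) for 8396 genes and unnamed probes, both axes logarithmic, with the line of equal level and the 2-fold lines. Red marks the 1167 genes called higher on mesenchyme 2 and blue the 965 called lower; Krt23, Gkn2 and Fabp3 lie far above the 2-fold lines and Lefty1, Aire and Fgf15 far below.

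Genes on the stomach and gut epithelium list were among the largest rises. The largest was that of Krt23, a keratin, which gave 834 and 873 on mesenchyme 2, against 16.5 and 24.3 on mesenchyme 1 (5.41 ± 0.194, 42.6-fold, adjusted p = 2.36e-06). Gkn1, a gastrokine secreted by the stomach lining, gave 1144 and 1265 on mesenchyme 2, against 39.1 and 42.2 on mesenchyme 1 (4.89 ± 0.154, 29.6-fold). Its relative Gkn2 gave 2401 and 2279.5 on mesenchyme 2, against 109 and 95.8 on mesenchyme 1 (4.52 ± 0.0974, 22.9-fold). On the arrays of mesenchyme 1 all of these sat in the lower part of the intensity range, as they did in P0, where Krt23 gave 14.1 and 17.7, Gkn1 29.8 and 40.5 and Gkn2 67.0 and 66.6. Aqp8, a water channel of secretory and absorptive epithelia, gave 681 and 693 on mesenchyme 2, against 28.7 and 23.7 on mesenchyme 1 (4.72 ± 0.112). Hkdc1, a hexokinase family member, gave 1343 and 1425 on mesenchyme 2, against 75.8 and 85.03 on mesenchyme 1 (4.11 ± 0.106), and Pga5, a pepsinogen that is not on the list counted below, the zymogen of the stomach protease pepsin, gave 2539 and 2736 on mesenchyme 2, against 222 and 212 on mesenchyme 1 (3.60 ± 0.0896). No array of mesenchyme 2 overlapped any of mesenchyme 1 in these genes. Of 11 measured genes on the stomach and gut epithelium list, 9 rose and 0 fell, with a median difference of 3.38 against 0.02 over all features. This list, like those below, was chosen with earlier results of these data known, so its count is a description and no test. Besides Krt23, Gkn1, Gkn2, Aqp8 and Hkdc1 they were the lectin Lgals2 (3.38 ± 0.121), the pepsinogen Pgc (2.73 ± 0.112), the membrane mucin Muc13 (2.36 ± 0.131) and the water channel Aqp3 (2.19 ± 0.144). The members not called, by their brightest probes, were Sox2 and the lectin Lgals4 (0.76 ± 0.141). Another probe of each was called, lower for Sox2 (-2.65) and higher for Lgals4 (1.05).

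The promoters of Gkn1, Gkn2 and Plaur, the gene of the urokinase receptor, are shown because these genes are among the 30 largest rises and hold letters whose share among called genes is counted below. Each runs from 250 bases before to 50 after the RefSeq start (GRCm38.p6), 5′ to 3′ on the gene's own strand. Capitals mark the AP-1 letters TGACTCA, the GATA letters AGATAA, the TATA letters TATAAA and the CCAAT letters, on either strand.
Gkn1, chr6:87350866-87351165, minus strand: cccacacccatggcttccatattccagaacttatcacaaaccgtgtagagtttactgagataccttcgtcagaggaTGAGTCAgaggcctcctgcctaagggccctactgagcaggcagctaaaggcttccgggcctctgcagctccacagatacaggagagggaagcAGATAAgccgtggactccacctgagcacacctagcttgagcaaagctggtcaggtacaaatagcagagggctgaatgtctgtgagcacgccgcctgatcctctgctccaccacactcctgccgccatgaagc
Gkn2, chr6:87373115-87373414, plus strand: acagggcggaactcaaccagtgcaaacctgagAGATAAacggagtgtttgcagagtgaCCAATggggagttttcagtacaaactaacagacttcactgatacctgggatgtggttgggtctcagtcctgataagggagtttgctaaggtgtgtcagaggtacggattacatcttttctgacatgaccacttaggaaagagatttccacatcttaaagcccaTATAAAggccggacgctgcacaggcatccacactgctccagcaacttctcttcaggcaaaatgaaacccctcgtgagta
Plaur, chr7:24462233-24462532, plus strand: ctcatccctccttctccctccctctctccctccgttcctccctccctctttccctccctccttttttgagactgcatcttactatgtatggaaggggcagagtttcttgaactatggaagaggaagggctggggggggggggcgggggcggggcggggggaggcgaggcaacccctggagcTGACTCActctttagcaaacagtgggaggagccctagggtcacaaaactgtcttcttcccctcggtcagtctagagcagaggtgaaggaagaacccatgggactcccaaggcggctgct
In Gkn2 the TATA letters begin 29 bases before the start. In Plaur the AP-1 letters begin 69 bases before it, and in Gkn1 174 bases before it. The motifs were chosen after the values had been seen, so their shares are descriptions. Of the 7774 named genes, 6378 had a promoter in the table. TATAAA on either strand stood in 6.79% of these 6378, in 9.42% of the 892 genes called higher and in 8.48% of the 719 called lower. Among changes of at least 4-fold, it stood in 16.2% of the 234 genes higher and in 8.25% of the 97 lower. TGACTCA stood in 3.31% of all 6378, in 5.16% of the genes called higher and in 2.78% of those called lower. AGATAA stood in 5.63%, 6.73% and 5.29% of the same sets. The number of CG dinucleotides per promoter had a median of 15.5 in genes higher at least 4-fold and of 18 in those lower at least 4-fold, of 20 in all genes called higher and 21 in all called lower, and of 21 over all 6378.

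Other genes among the 30 largest rises differed in known function. Myl3, a myosin light chain of slow muscle and heart, gave 429 and 531 on mesenchyme 2, against 14.9 and 15.8 on mesenchyme 1 (4.96 ± 0.119). Fabp3, a fatty acid binding protein, was the brightest of the 30 largest rises, with 5888 and 5677 on mesenchyme 2, against 374 and 344 on mesenchyme 1 (4.01 ± 0.0955, 16.1-fold). Slco2a1, a prostaglandin carrier, gave 1775 and 1893 on mesenchyme 2, against 133 and 109.5 on mesenchyme 1 (3.92 ± 0.115). Each of these genes separated the arrays of the cultures. Ddit3, a transcription factor induced by stress, stood at 984 on mesenchyme 2, 45.1 on mesenchyme 1 and 61.3 in P0, and Cxcl16, a chemokine, at 563 on mesenchyme 2, 27.3 on mesenchyme 1 and 47.7 in P0. Rfx6, a transcription factor of endocrine pancreas and gut, stood at 164 on mesenchyme 2, 13.6 on mesenchyme 1 and 35.1 in P0. The others, from 3.59 to 4.76 on the log2 scale, were B4galnt2, Mgst2, Nxf7, Apoa1, Sphk1, S100a1, Tns4, Fxyd3, Hs3st1, Tinagl1, Emp2, Rbp4, Dram1, Crim1, Slc34a2, Esam and Drp2. They include a glycosyltransferase (B4galnt2), a lipid kinase (Sphk1), a tensin of cell adhesions (Tns4), the phosphate transporter Slc34a2 and the adhesion molecule Esam. Because low levels weigh on a ratio, it was also taken with a constant added. For Krt23 the ratio of 42.6-fold became 24.03-fold with 16 added to every intensity and 12.8-fold with 50 added. For the brighter Fabp3 the values were 16.1-fold, 15.5-fold and 14.3-fold. Of the 272 called genes named here, 46 had a ratio that moved by over 1.5 times with 16 added and 119 with 50 added. Calls were lost in 17 and 47 of them, and no direction turned. The calls lost with 16 added were those of Axin2, Ccnd2, Cdh3, Cldn7, Cox7a2, Ctsd, Dpp4, Fgf1, Gata2, Gata3, H2-D1, Itgb7, Klf2, Krt14, Myc, Ocln and Phgdh.

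The falls were led by Lefty1, Aire and Fgf15. Lefty1, a secreted inhibitor of Nodal that Nodal itself induces, gave 22.4 and 24.2 on mesenchyme 2, against 1226 and 1301 on mesenchyme 1 (-5.76 ± 0.101, 54.2-fold lower, adjusted p = 1.41e-06). Aire, known from the thymus as the autoimmune regulator, gave 16.7 and 12.9 on mesenchyme 2, against 705 and 640.4 on mesenchyme 1 (-5.52 ± 0.135, 45.8-fold lower). Fgf15, a growth factor of embryonic brain and ileum, gave 8.75 and 14.3 on mesenchyme 2, against 295 and 289 on mesenchyme 1 (-4.71 ± 0.222). The arrays of mesenchyme 2 lay near the low end of the table in these genes, and whether they lay above background there is unknown. With 16 and with 50 added, Lefty1 stood at 32.5-fold and 17.9-fold, and Fgf15 at 11.2-fold and 5.57-fold. Upp1, uridine phosphorylase, was far brighter and gave 279 and 330.4 on mesenchyme 2, against 3488 and 3810.2 on mesenchyme 1 (-3.59 ± 0.112). Dnmt3b, a DNA methyltransferase of the early embryo, gave 722 and 705 on mesenchyme 2, against 5407 and 5394 on mesenchyme 1 (-2.92 ± 0.0846). Trh, which encodes thyrotropin-releasing hormone, stood at 66.0 on mesenchyme 2, 1178 on mesenchyme 1 and 1654 in P0. The remaining falls of the 30 largest, from -4.21 to -2.87, were those of Prmt8, Enox1, Pou3f1, Otx2, Notch4, Fgf4, Ptn, Notum, Lefty2, Vrtn, Tdrd12, Slc35f2, Map7d3, Trib2, Mcm7, Gbx2, Bahcc1, Pcyt1b, Actn3, Atad2, Robo4, Ccnd1, Aldoc and Adgrl1. Ptn is a secreted growth factor, Tdrd12 works in the piRNA pathway of the germline, Trib2 is a pseudokinase and Robo4 a receptor of endothelium.

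**Figure D2:**
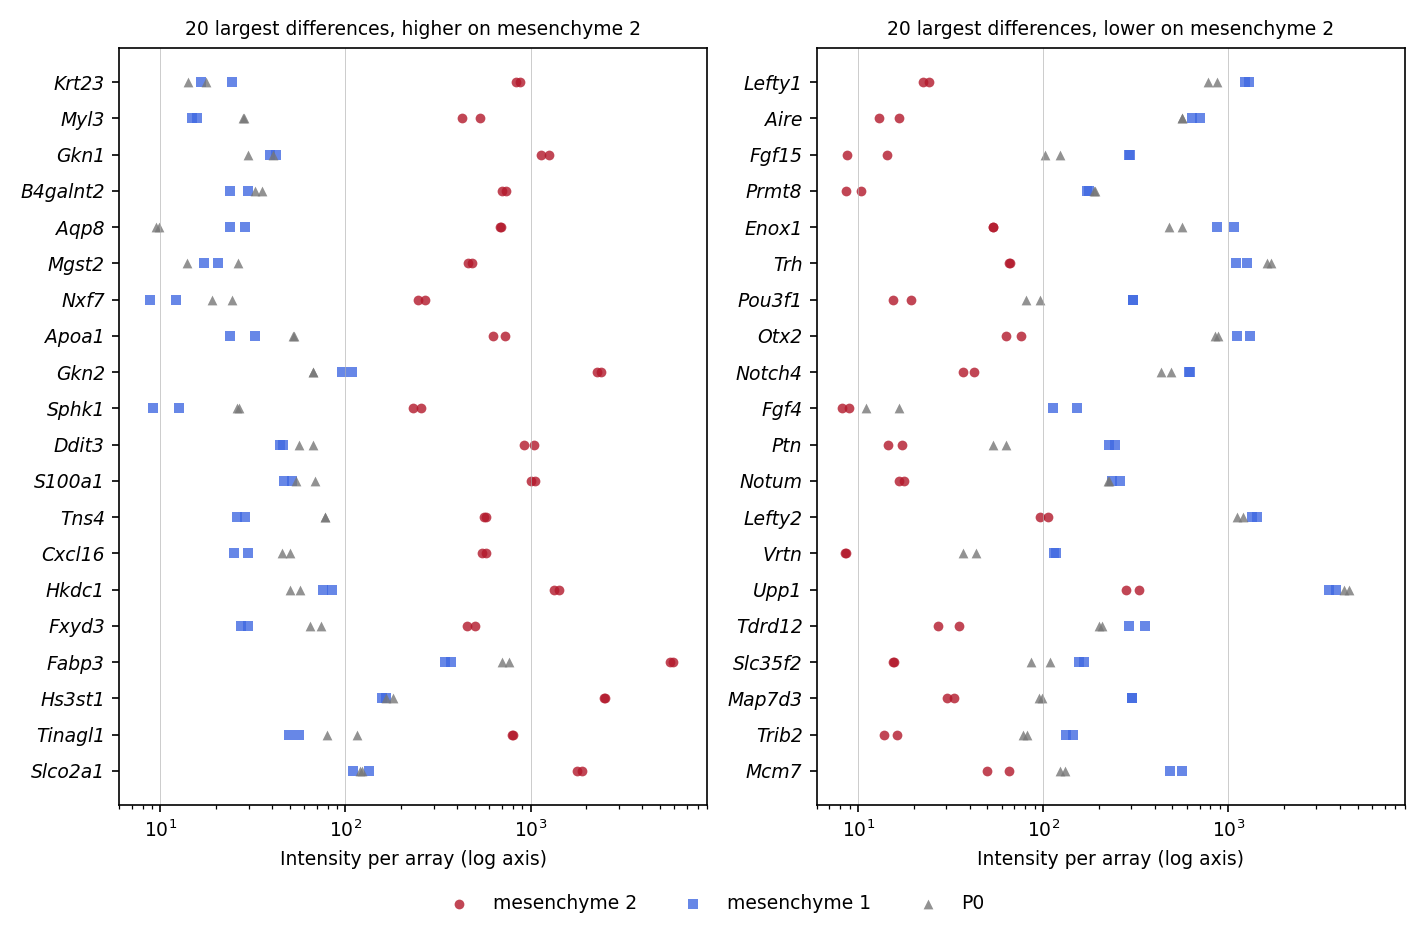
Normalized intensity of every array (logarithmic axis) for the 20 largest rises on the left and the 20 largest falls on the right. Circles are mesenchyme 2, squares mesenchyme 1 and triangles P0; circles lie apart from squares in each of the 40 genes.

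On the definitive endoderm list, 8 of 15 measured members rose and 2 fell (median 2.03). The list holds Sox17, Gata and Foxa factors that extraembryonic endoderm shares, so its rises do not tell these lineages apart. Gata6, a zinc finger factor of endoderm and heart, gave 1514 and 1541 on mesenchyme 2, against 309 and 322 on mesenchyme 1 (2.28 ± 0.118), and Sox7, a relative of Sox17, gave 244 and 215 on mesenchyme 2, against 44.4 and 47.0 on mesenchyme 1 (2.32 ± 0.12). Gata4 rose too, at a low signal, with 49.6 and 36.5 on mesenchyme 2, against 9.34 and 11.6 on mesenchyme 1 (2.03 ± 0.304). Foxa3, a forkhead factor of gut and liver, stood at 409 on mesenchyme 2 and 70.0 on mesenchyme 1 (2.55 ± 0.101). The keratins of simple epithelia completed the rises, Krt8 at 4382 on mesenchyme 2 and 889.5 on mesenchyme 1, Krt18 at 2221 on mesenchyme 2 and 307 on mesenchyme 1 and Krt19 at 356 on mesenchyme 2 and 82.3 on mesenchyme 1. The falls were Otx2, an anterior factor (-4.12 ± 0.127), and Trh. Of the members not called, Rab15 differed by 0.42 ± 0.0931, Foxa1 by 0.82 ± 0.11, Hhex by 0.25 ± 0.132 and the streak factor gene Eomes by -0.49 ± 0.106. All 4 measured Gata factors rose, with Gata2 at 36.7 on mesenchyme 2, 14.7 on mesenchyme 1 and 85.7 in P0 and Gata3 at 57.1 on mesenchyme 2, 23.9 on mesenchyme 1 and 117 in P0. The call of Gata3 (1.26 ± 0.301) was lost without mesenchyme 2 replicate 1, where limma's adjusted p was 0.0505, and without mesenchyme 1 replicate 1, where the difference was 0.75. In P0 Gata2 and Gata3 stood above both passaged cultures. With 16 added to every intensity, 2 of the 4 Gata factors were called, Gata2 (1.72-fold) and Gata3 (1.81-fold) no longer being so.

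Parietal endoderm genes rose on mesenchyme 2 almost throughout. Of 26 measured members 22 rose and 0 fell, with a median of 2.31; their summed level was 46273 on mesenchyme 2 and 10196 on mesenchyme 1. Sparc, a matrix protein abundant in parietal endoderm, gave 6734 and 6484 on mesenchyme 2, against 859.7 and 756 on mesenchyme 1 (3.04 ± 0.0975). Hs3st1, a heparan sulphate sulphotransferase, stood at 2504 on mesenchyme 2 and 162 on mesenchyme 1 (3.95 ± 0.0911), and Srgn, the core protein of the proteoglycan serglycin, at 1472 on mesenchyme 2 and 134 on mesenchyme 1 (3.46 ± 0.0953). Snai1, a repressor of E-cadherin, rose by 3.50 ± 0.121 while Cdh1 was not called. Thbd, thrombomodulin, rose by 3.34 ± 0.1, and Pth1r, the receptor through which parathyroid hormone-related protein drives parietal differentiation, by 3.28 ± 0.106. Pdgfra rose by 2.69 ± 0.0987, the activin-binding protein gene Fst by 2.54 ± 0.116 and the endocytic adaptor gene Dab2 by 2.11 ± 0.0963. The intermediate filament gene Vim, a member too, stood lower, at 256 on mesenchyme 2 and 451 on mesenchyme 1, under the 2-fold limit (-0.82 ± 0.102).

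Genes of the basement membrane rose as well, on a list that overlaps the parietal one. Lama1, Col4a1 and Sparc served as defining markers of parietal endoderm, so the counts are not independent. Lama1, the laminin chain of the first embryonic basement membranes, gave 4872 and 5370.3 on mesenchyme 2, against 1115 and 925 on mesenchyme 1 (2.33 ± 0.131), Lamb1 gave 1024 and 1061 on mesenchyme 2, against 207 and 218 on mesenchyme 1 (2.29 ± 0.0937) and Lamc1 gave 4418 and 4688 on mesenchyme 2, against 1157 and 1139 on mesenchyme 1 (1.99 ± 0.116). All 3 chains of laminin-111 thus rose, and Lamb2 rose as well (1.76 ± 0.0952). Col4a1 and Col4a2, the chains of type IV collagen, stood at 6805 on mesenchyme 2 and 1310.0 on mesenchyme 1 and at 5251 on mesenchyme 2 and 653 on mesenchyme 1 (2.38 ± 0.0952 and 3.01 ± 0.103). Nid1, which joins laminin to collagen IV, rose by 1.97 ± 0.126. Enzymes that process collagen in the endoplasmic reticulum rose beside it, among them the collagen chaperone Serpinh1 (2.19 ± 0.0877), the prolyl hydroxylases P4ha1 (1.46 ± 0.0938), P4ha2 (1.65 ± 0.0877) and P3h2 (2.18 ± 0.174), and the lysyl hydroxylase Plod2 (1.09 ± 0.093). In all 16 of 28 members of the basement membrane list rose and 2 fell (median 1.11). The falls were Col18a1, which gave 1297 and 1335 on mesenchyme 2, against 5351 and 4886 on mesenchyme 1 (-1.96 ± 0.0911), and the disulphide isomerase Pdia4 (-1.07 ± 0.0835). Other collagens did not move with collagen IV: Col5a1, a fibrillar chain, fell by 1.37 ± 0.0872 and Col16a1 fell by 1.49 ± 0.0844. Of the matrix proteases and their inhibitors, Plaur stood at 339 on mesenchyme 2 and 27.2 on mesenchyme 1 (3.64 ± 0.191), and Timp2 and Timp3, inhibitors of metalloproteases, rose by 2.67 ± 0.0855 and 2.16 ± 0.0829. Among 21 measured integrins, proteases and inhibitors 4 rose and 2 fell, the falls being Itgb7, which was just under 2-fold with 16 added, and Adam23. The 28.6% called is near the 25.4% of all features.

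Visceral endoderm genes, many of which encode plasma proteins, rose as a group too: 18 of 19 measured members, with 0 falls and a median of 2.27. Apoa1, the main apolipoprotein of high-density lipoprotein, gave 731 and 626 on mesenchyme 2, against 23.8 and 32.2 on mesenchyme 1 (4.61 ± 0.156). Rbp4, the retinol carrier of plasma, gave 1728 and 1472 on mesenchyme 2, against 112 and 102 on mesenchyme 1 (3.90 ± 0.11), and Ttr, its partner transthyretin, gave 3157 and 3119 on mesenchyme 2, against 316 and 292 on mesenchyme 1 (3.37 ± 0.095). Afp, alpha-fetoprotein, gave 415 and 432 on mesenchyme 2, against 64.0 and 64.4 on mesenchyme 1, and 21.7 and 30.5 in P0 (2.72 ± 0.157). In these genes the arrays of mesenchyme 2 lay above all others, and for Afp those of mesenchyme 1 lay above P0. Apom, Apoe and the transferrin gene Trf rose by 3.34 ± 0.15, 2.27 ± 0.096 and 1.94 ± 0.293. Hnf4a, a nuclear receptor that drives hepatocyte genes, gave 221 and 192 on mesenchyme 2, against 50.2 and 70.1 on mesenchyme 1 (1.80 ± 0.164), and Amn, amnionless, the partner of cubilin in uptake, gave 368 and 377 on mesenchyme 2, against 113 and 129.7 on mesenchyme 1 (1.62 ± 0.0975). Of the 9 measured liver plasma protein genes, several of them on the visceral list, 7 rose and 0 fell; the prothrombin gene F2 stood at 72.3 on mesenchyme 2 and 21.7 on mesenchyme 1. The call of Dpp4, the smallest rise on the visceral list at 1.02 ± 0.104, was lost without mesenchyme 2 replicate 1 (0.91). Cpn1, at 17.9 on mesenchyme 2 and 15.6 on mesenchyme 1, was the member not called.

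**Figure D3:**
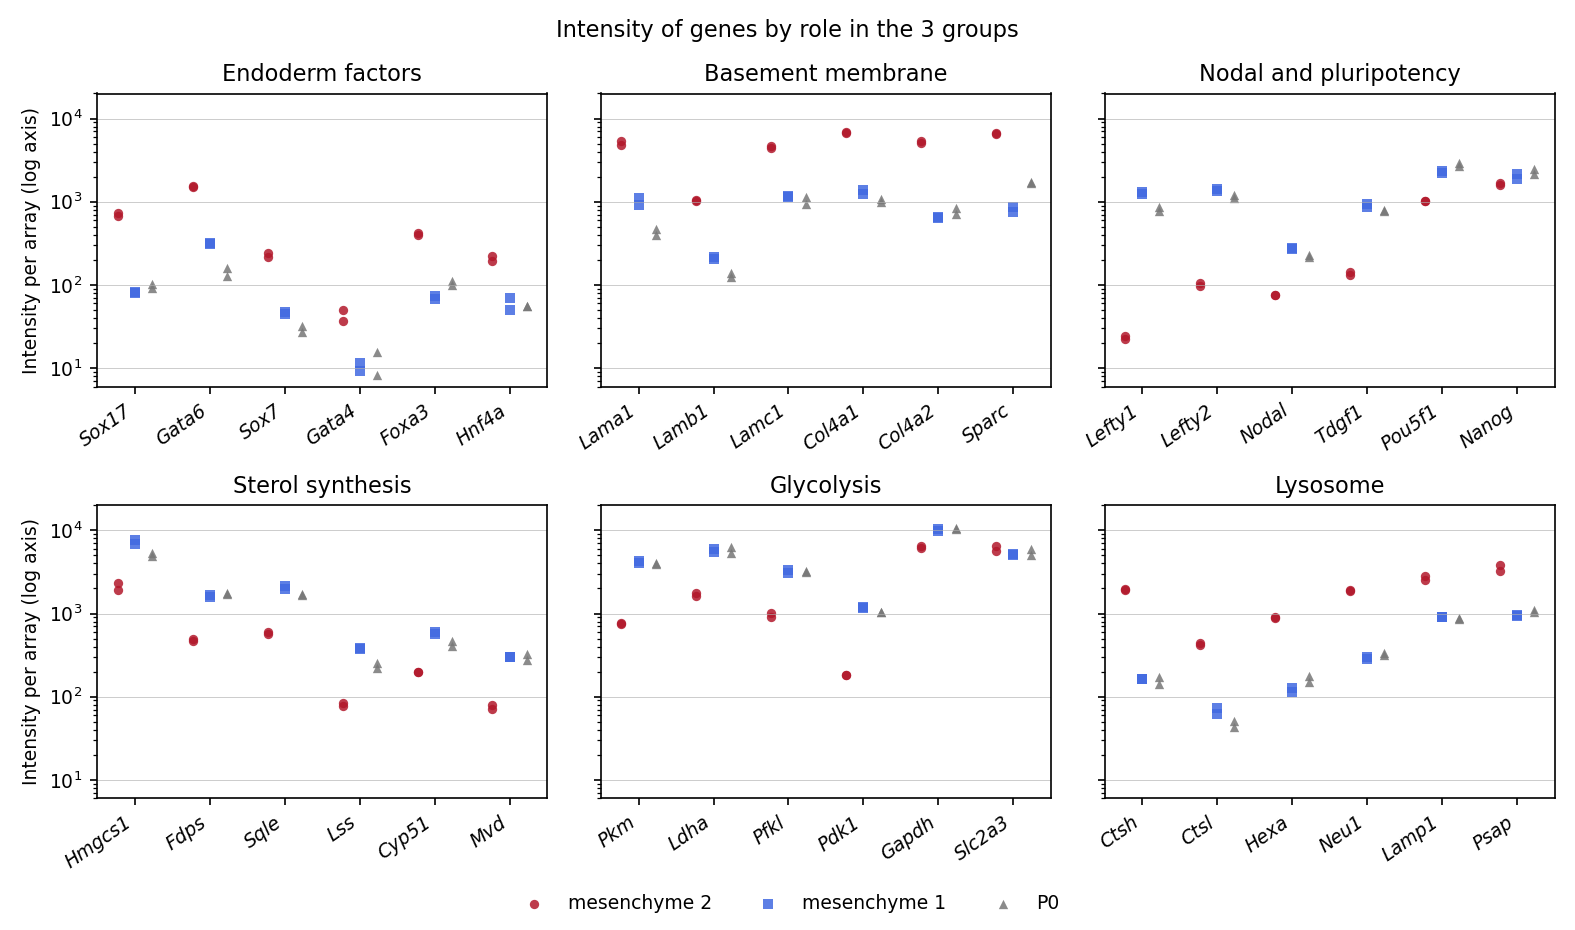
Normalized intensity of every array (logarithmic axis) for 6 genes in each of 6 roles, with mesenchyme 2 as circles, mesenchyme 1 as squares and P0 as triangles. Circles lie above squares for the endoderm factors, basement membrane and lysosome genes and below them for the Nodal, sterol and most glycolysis genes; for Slc2a3 and Nanog the cultures lie close together.

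Epithelial structure differed by component. Of 9 measured keratins 7 rose and 0 fell; beyond those above, Krt7 stood at 118 on mesenchyme 2, 45.4 on mesenchyme 1 and 179 in P0 and Krt17 at 545 on mesenchyme 2, 222 on mesenchyme 1 and 377 in P0. The call of Krt14 (1.10 ± 0.119) was lost without mesenchyme 1 replicate 2 (0.95). Claudins of tight junctions rose in part, with Cldn6 at 2822 on mesenchyme 2 and 597 on mesenchyme 1 (2.24 ± 0.105), Cldn4 at 1012 on mesenchyme 2 and 384 on mesenchyme 1 (1.40 ± 0.0971) and Cldn7 at 49.9 on mesenchyme 2 and 21.1 on mesenchyme 1, under 2-fold with 16 added (1.78-fold). Ocln, occludin, rose by 1.28 ± 0.157 and the desmosome genes Dsg2 and Pkp3 by 1.44 ± 0.116 and 1.64 ± 0.0876, whereas Cdh3, P-cadherin, fell by 1.07 ± 0.109. With 16 added the ratios of Ocln and Cdh3 were 1.91-fold and 1.87-fold, and neither was called. The gap junction gene Gja1 (0.94 ± 0.0931) and the tight junction scaffold gene Tjp1 (0.90 ± 0.0942) stayed under 2-fold. Over the junction and keratin list 13 of 23 members rose and 1 fell (median 1.24).

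Lysosomal genes rose together on mesenchyme 2. The lysosome is the acid compartment that digests what a cell takes in, and 27 of 37 measured members of its list rose while 0 fell (median 1.53). Ctsh, a cathepsin protease, gave 1956 and 1943 on mesenchyme 2, against 161 and 163 on mesenchyme 1 (3.59 ± 0.113). Hexa, a subunit of beta-hexosaminidase, gave 899 and 879 on mesenchyme 2, against 113 and 129 on mesenchyme 1 (2.88 ± 0.117), and Neu1, a sialidase, gave 1885 and 1927 on mesenchyme 2, against 301 and 283 on mesenchyme 1 (2.71 ± 0.0892). The proteases Ctsl, Ctsc, Ctsz, Ctsb and Ctsd rose by 2.68 ± 0.127, 2.19 ± 0.115, 2.15 ± 0.0893, 1.55 ± 0.0929 and 1.30 ± 0.171, of which Ctsd fell short of 2-fold with 16 added (1.73-fold). The membrane proteins of the organelle were higher as well, Lamp1 at 2676 on mesenchyme 2 and 911 on mesenchyme 1 (1.55 ± 0.0891), Lamp2 at 2085 on mesenchyme 2 and 684 on mesenchyme 1 (1.61 ± 0.131) and Cd63 at 4359 on mesenchyme 2 and 573 on mesenchyme 1 (2.93 ± 0.0878). Psap, the precursor of sphingolipid activators, gave 3862 and 3258 on mesenchyme 2, against 938 and 959 on mesenchyme 1 (1.90 ± 0.109). Members that were not called included the mannosidase Manba, lower at -0.58 ± 0.0923, and Man2b1 and Glb1 at 0.14 ± 0.084 and 0.21 ± 0.0954. Of 16 genes named for the vacuolar proton pump, which acidifies the lysosome, 7 rose and 0 fell (median 0.95). Atp6v0b led with 1005 on mesenchyme 2 and 255 on mesenchyme 1 (1.98 ± 0.103), and Atp6v1a and Atp6v1b2, not called, differed by 0.14 ± 0.0899 and 0.50 ± 0.0965.

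The immediate early list, of factors that respond to growth signals and stress, had 14 of 19 members higher and 2 lower (median 1.95). The AP-1 subunits Fos, Fosb, Jun and Junb rose by 2.09 ± 0.119, 2.34 ± 0.109, 1.95 ± 0.1 and 1.26 ± 0.0935. Fos gave 851 and 952 on mesenchyme 2, against 219.5 and 203 on mesenchyme 1, and 381 and 454 in P0, so that P0 lay between the cultures. Junb gave 134 and 134 on mesenchyme 2, against 54.6 and 57.8 on mesenchyme 1, and 171 and 154 in P0, where P0 lay above both. The matricellular genes Ccn1 and Ccn2 stood at 1066 on mesenchyme 2 and 137 on mesenchyme 1 and at 8195 on mesenchyme 2 and 1409.9 on mesenchyme 1 (2.96 ± 0.157 and 2.54 ± 0.0923). Klf4, a factor of both pluripotent and gut epithelial cells, gave 1295 and 1166 on mesenchyme 2, against 151 and 155 on mesenchyme 1, and 373 and 404 in P0 (3.01 ± 0.0969). Egr1 stood at 2229 on mesenchyme 2 and 2069 on mesenchyme 1 and was not called (0.11 ± 0.0907), and Myc fell by 1.11 ± 0.117 at intensities of 10.6 on mesenchyme 2 and 22.8 on mesenchyme 1, a call lost with 16 added (1.46-fold). The call of Klf2, the other fall (-1.01 ± 0.117), was lost without mesenchyme 2 replicate 2 (-0.97) and without mesenchyme 1 replicate 2 (-0.95), which left 1 fall on the list.

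The unfolded protein and integrated stress response list split. Its 10 rises of 40 members were led by Ddit3, which gave 924 and 1049 on mesenchyme 2, against 44.2 and 46.0 on mesenchyme 1 (4.45 ± 0.119), and by Atf3, another stress-induced factor, which stood at 202 on mesenchyme 2 and 21.6 on mesenchyme 1 (3.23 ± 0.1). Cebpb rose by 2.35 ± 0.0948, Nupr1 by 2.41 ± 0.0877, Ppp1r15a, which lifts the block on translation, by 1.93 ± 0.084, and Atf5 by 1.51 ± 0.138. Enzymes and chaperones on the same list did not follow: the serine synthesis gene Phgdh and the chaperone gene Calr fell (-1.03 ± 0.0927, or 1.98-fold and not called with 16 added, and -1.13 ± 0.114), and the tRNA synthetase gene Gars differed by -0.24 ± 0.0922. The list median was 0.09, with 3 falls. Of 28 cell cycle inhibitors and p53 targets 5 rose and 1 fell, with 2 falls without mesenchyme 1 replicate 1 and 0 without mesenchyme 1 replicate 2. The 21.4% called is below the 25.4% of all features. Dram1, a lysosomal membrane protein that p53 induces, gave 379 and 366 on mesenchyme 2, against 24.3 and 32.7 on mesenchyme 1 (3.72 ± 0.142), Btg1 stood at 4772 on mesenchyme 2 and 959 on mesenchyme 1 (2.31 ± 0.0844) and Cdkn1a, the p21 inhibitor, at 1305 on mesenchyme 2 and 514 on mesenchyme 1 (1.35 ± 0.0904).

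Detoxification and transport genes rose in part. Mgst2, a glutathione transferase of membranes, gave 485 and 457 on mesenchyme 2, against 17.3 and 20.5 on mesenchyme 1 (4.64 ± 0.274), and Gsto1, Gpx3 and Hmox1 rose by 2.18 ± 0.0999, 2.27 ± 0.101 and 1.98 ± 0.116. Gsta4, a transferase for products of lipid peroxidation, fell instead, with 167 and 176 on mesenchyme 2, against 509.9 and 604 on mesenchyme 1 (-1.70 ± 0.107). Over the list 8 of 36 members rose and 2 fell (median 0.17), a share near that of all features. Fxyd3, a regulator of the sodium pump, stood at 478 on mesenchyme 2 and 28.5 on mesenchyme 1 (4.07 ± 0.11), the pump subunit gene Atp1b1 at 1579.5 on mesenchyme 2 and 518 on mesenchyme 1 (1.61 ± 0.086) and the chloride channel relative Clic6 at 1664 on mesenchyme 2 and 316 on mesenchyme 1 (2.40 ± 0.0865). Tfrc, the transferrin receptor that brings in iron, gave 647 and 663 on mesenchyme 2, against 2976 and 2967 on mesenchyme 1, and 3153 and 3128 in P0 and fell by 2.18 ± 0.0822, and the amino acid transporter Slc7a7 fell by 2.22 ± 0.113. The transport list held 7 rises and 3 falls among 22. Calcium-binding families moved one way: of 7 annexins 5 rose and 0 fell, with Anxa2 at 5292 on mesenchyme 2 and 1852 on mesenchyme 1 and Anxa3 at 2799.9 on mesenchyme 2 and 571 on mesenchyme 1. Of 5 S100 genes 4 rose, S100a1 by 4.40 ± 0.132 and S100a13 by 3.48 ± 0.117.

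Nodal signalling genes were lower on mesenchyme 2 at several levels of the pathway. Nodal, the ligand, gave 75.3 and 75.2 on mesenchyme 2, against 277 and 272 on mesenchyme 1 (-1.86 ± 0.085). Tdgf1, the coreceptor Cripto, gave 141 and 133 on mesenchyme 2, against 943 and 865 on mesenchyme 1 (-2.72 ± 0.0922). Lefty2, its other Lefty inhibitor, gave 107 and 96.3 on mesenchyme 2, against 1433 and 1347 on mesenchyme 1 (-3.78 ± 0.0983). The arrays of mesenchyme 2 were below all others in each, and those of P0 lay nearer to mesenchyme 1. Fst, which binds and blocks activins, went the other way (2.54 ± 0.116), and the receptor gene Acvr2b and the cofactor gene Foxh1 were not called (-0.39 ± 0.0947 and -0.31 ± 0.122). Of 10 measured members of the list, which joins primitive streak genes to those of Nodal, 4 fell and 1 rose (median -0.44).

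Pluripotency genes fell in part. Of 24 measured members 11 fell and 2 rose (median -0.84). Utf1, a chromatin factor of embryonic stem cells, gave 127 and 118 on mesenchyme 2, against 775 and 822 on mesenchyme 1 (-2.71 ± 0.0905). Gdf3, a ligand of the Nodal family, fell by 1.94 ± 0.0859, and Dppa4 (-1.40 ± 0.0892), the corepressor Trim28 (-1.43 ± 0.0843) and L1td1 (-1.84 ± 0.14) fell as well. Fgf4 stood at 8.53 on mesenchyme 2, 131 on mesenchyme 1 and 13.5 in P0, so that its fall of 3.95 ± 0.213 set mesenchyme 2 near P0. The bright Dppa5a (7684 on mesenchyme 2 and 12419 on mesenchyme 1, -0.69 ± 0.0966) and Sall4 (-0.85 ± 0.105) were lower by less than 2-fold, and Klf5 was higher by less (0.91 ± 0.114). Tbx3, which also acts in extraembryonic endoderm, rose by 1.30 ± 0.119, and with Klf4 made up the rises of this list. The epiblast and neural list had 6 falls and 0 rises among 11 measured members (median -2.71). Pou3f1, a factor of late epiblast and neural cells, stood at 17.3 on mesenchyme 2, 306 on mesenchyme 1 and 87.9 in P0, Gbx2 at 62.0 on mesenchyme 2, 552 on mesenchyme 1 and 478 in P0 and the neuronal stathmin Stmn2 at 85.4 on mesenchyme 2, 558 on mesenchyme 1 and 590.3 in P0. Otx2 gave 76.0 and 63.1 on mesenchyme 2, against 1112 and 1308 on mesenchyme 1.

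Ligands and targets of other pathways split. In the FGF and ERK list 5 of 19 rose and 5 fell. The ligands Fgf15, Fgf4, Fgf17 and Fgf1 fell (-4.71, -3.95, -2.11 and -1.17), and so did the ERK target Etv5 (-1.78 ± 0.104). The call of Fgf1 was lost with 16 added (1.65-fold). Fgf10, a ligand that gut and lung mesenchyme makes, rose, with 206 and 198 on mesenchyme 2, against 24.2 and 31.9 on mesenchyme 1 (2.86 ± 0.144). Klb, the coreceptor for FGF15 and FGF21, gave 238 and 246 on mesenchyme 2, against 24.6 and 18.6 on mesenchyme 1, and 14.5 and 8.32 in P0 (3.50 ± 0.257). In the Wnt list 6 of 15 fell and 2 rose, or 3 and 0 with 16 added to every intensity. Notum, a Wnt target that inactivates Wnt proteins, gave 16.6 and 17.8 on mesenchyme 2, against 235 and 259 on mesenchyme 1 (-3.84 ± 0.0942), Axin2, the general feedback target, fell by 1.31 ± 0.14, and the cyclin Ccnd1 gave 119 and 91.2 on mesenchyme 2, against 816 and 889.9 on mesenchyme 1 (-3.03 ± 0.139), while Ccnd2 rose by 1.09 ± 0.126; the calls of Axin2 and Ccnd2 were lost with 16 added (1.97-fold and 1.91-fold). Receptors and ligands of Notch signalling fell, Notch4 with 42.0 and 36.9 on mesenchyme 2, against 612 and 619 on mesenchyme 1 (-3.97 ± 0.107), beside Notch1 (-1.18 ± 0.122), Notch3 (-1.29 ± 0.0858) and Jag1 (-1.79 ± 0.125). The gamma-secretase subunit genes Psenen, Psen2 and Aph1a, whose protease releases the active receptor, rose by 1.61 ± 0.103, 1.65 ± 0.13 and 1.53 ± 0.145, as did the target Hes1 (1.75 ± 0.138). The Notch list thus held 4 rises and 5 falls among 18.

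BMP and TGF-beta genes were mostly higher where called, 9 of 23 against 1 fall (median 0.68). The BMP targets Id1 and Id2 stood at 419 on mesenchyme 2, 143 on mesenchyme 1 and 265 in P0 and at 341 on mesenchyme 2, 69.0 on mesenchyme 1 and 141 in P0 (1.55 ± 0.104 and 2.31 ± 0.137). The receptor genes Tgfbr2 and Tgfbr3 rose by 2.11 ± 0.0869 and 2.26 ± 0.127, and the BMP modulators Bmper and Nbl1 by 2.47 ± 0.187 and 2.10 ± 0.184. Skil, which represses Smad targets, fell by 1.42 ± 0.0951, and the list had 2 falls without mesenchyme 1 replicate 1. Bmp4 itself was not called (-0.20 ± 0.0844). Among cytokines, chemokines and their receptors 5 of 25 rose and 6 fell, or 3 with 16 added. Hbegf and Tnfrsf12a rose by 2.14 ± 0.0924 and 2.59 ± 0.102, and Igfbp2, a binding protein for insulin-like growth factors, gave 195 and 209 on mesenchyme 2, against 1284 and 1351 on mesenchyme 1 (-2.71 ± 0.0887).

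**Figure D4:**
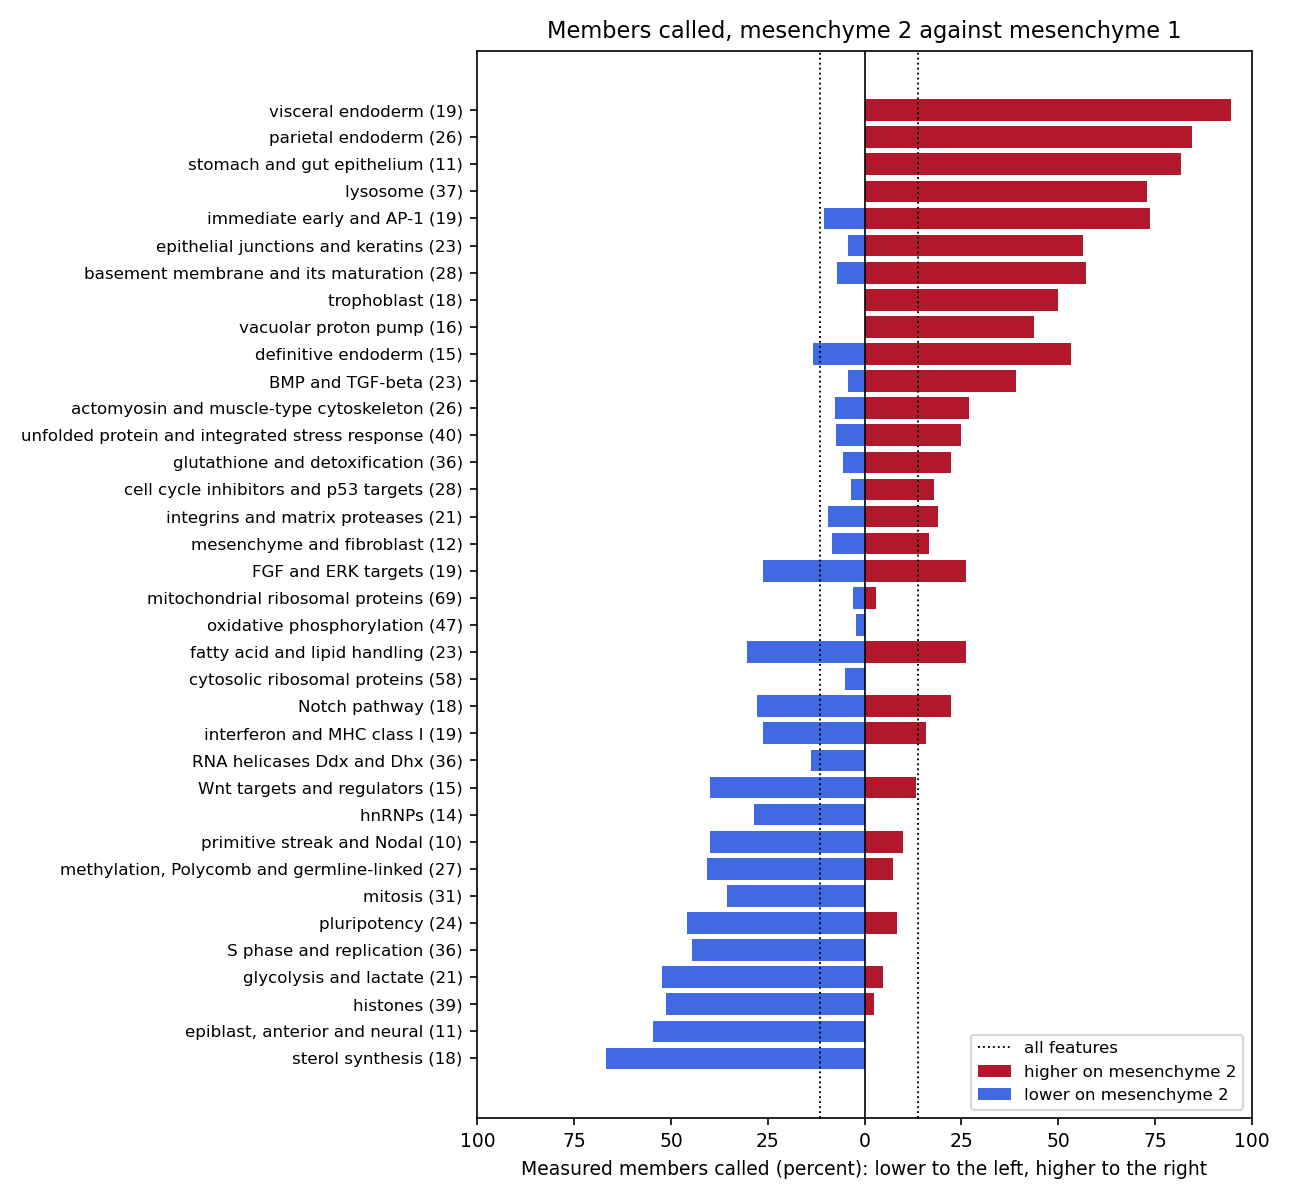
Percent of the measured members of 36 gene groups called higher (right) or lower (left) on mesenchyme 2 against mesenchyme 1, with the number measured in parentheses; dotted lines mark all features, 13.9% higher and 11.5% lower. The groups with the largest share of rises are visceral endoderm, parietal endoderm and stomach and gut epithelium, and the group with the largest share of falls is sterol synthesis.

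Sterol synthesis fell on mesenchyme 2 along the pathway, in 12 of 18 measured genes with 0 rises (median -1.50). Hmgcs1, the synthase at the entry of the mevalonate pathway, gave 2295 and 1919 on mesenchyme 2, against 7669 and 6764 on mesenchyme 1 (-1.78 ± 0.123). Mvd and Fdps, which make and join the isoprene units, stood at 75.3 on mesenchyme 2 and 300.1 on mesenchyme 1 and at 485 on mesenchyme 2 and 1634 on mesenchyme 1 (-1.99 ± 0.111 and -1.75 ± 0.0881). Sqle, the epoxidase of squalene, gave 560.2 and 595 on mesenchyme 2, against 1963 and 2138 on mesenchyme 1 (-1.83 ± 0.0926), and Lss, which closes the ring, gave 84.9 and 78.3 on mesenchyme 2, against 373 and 387 on mesenchyme 1 (-2.22 ± 0.102). The later enzymes Cyp51, Nsdhl and Dhcr7 fell (-1.56 ± 0.0996, -1.90 ± 0.0856 and -2.24 ± 0.135). Every array of mesenchyme 2 was below every array of mesenchyme 1 in these genes. Not called were the isomerase gene Ebp, which stood higher at 299 on mesenchyme 2 and 223 on mesenchyme 1 (0.42 ± 0.0949), and the cholesterol carrier Stard4 (-0.39 ± 0.128). Fatty acid genes split. The synthesis genes Acly, Scd1, Scd2, Elovl6 and Fads1 fell (-1.36 ± 0.0889, -1.58 ± 0.112, -2.14 ± 0.115, -1.25 ± 0.0881 and -1.33 ± 0.0986). The lipid droplet protein Plin2, the triglyceride enzyme Dgat2 and the carrier Fabp3 rose, Plin2 by 1.79 ± 0.157 and Dgat2 by 1.96 ± 0.153. The list of fatty acid and lipid handling had 6 rises and 7 falls among 23.

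Glycolysis genes fell in 11 of 21 measured members and rose in 1 (median -1.02). Pkm, pyruvate kinase, gave 766 and 751 on mesenchyme 2, against 4023 and 4300.2 on mesenchyme 1, and 3959 and 4079 in P0 (-2.46 ± 0.0868). Ldha, which makes lactate, gave 1783 and 1609 on mesenchyme 2, against 6032 and 5456 on mesenchyme 1 (-1.76 ± 0.117), and Pdk1, the kinase that keeps pyruvate from the mitochondrion, gave 185 and 182 on mesenchyme 2, against 1173 and 1204 on mesenchyme 1 (-2.70 ± 0.0831). The phosphofructokinase genes Pfkl and Pfkp fell (-1.73 ± 0.1 and -2.60 ± 0.102), as did the aldolase genes Aldoa and Aldoc (-1.18 ± 0.109 and -3.00 ± 0.128). Eno2, an enolase of neurons, was the rise, with 222 and 224 on mesenchyme 2, against 38.3 and 49.8 on mesenchyme 1 (2.35 ± 0.131). The glucose transporters were not called, Slc2a1 at -0.72 ± 0.0886 and Slc2a3 at 0.23 ± 0.123, nor was Tpi1 (-0.94 ± 0.1). A dimmer Tpi1 probe was called lower (-1.71), at 22.4 on mesenchyme 2 and 73.2 on mesenchyme 1. Outside glycolysis, the hypoxia targets Vegfa, Ndrg1, P4ha1 and P4ha2 rose by 1.21 ± 0.103, 1.43 ± 0.101, 1.46 ± 0.0938 and 1.65 ± 0.0877, and Kdm3a fell by 1.31 ± 0.0967. The whole hypoxia list held 4 rises and 3 falls among 15. Its lowest difference, -3.00, is that of Aldoc, so the list takes in glycolysis genes. Oxidative phosphorylation genes stayed close together. Of 47 measured, 0 rose and 1 fell (median 0.05), and the bright members Atp5b and Cox8a differed by -0.29 ± 0.0871 and 0.34 ± 0.104. The fall was Cox7a2 (-1.04 ± 0.0964), whose call was lost without mesenchyme 2 replicate 2 (-0.96) and without mesenchyme 1 replicate 2 (-0.997), leaving 0 falls.

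Genes of DNA replication and division were lower on mesenchyme 2, with no rise on either list. Of 36 S phase genes 16 fell (median -0.95), and of 31 mitosis genes 11 fell (median -0.80). Of 7 measured genes named for minichromosome maintenance 6 fell. Several of them encode subunits of the MCM helicase, which unwinds DNA at the fork. Mcm7 gave 65.0 and 49.4 on mesenchyme 2, against 564 and 483 on mesenchyme 1, and 123 and 131 in P0 (-3.20 ± 0.15), Mcm6 gave 639 and 555 on mesenchyme 2, against 1851 and 1760.4 on mesenchyme 1 (-1.60 ± 0.11) and Mcm3 gave 138 and 137 on mesenchyme 2, against 417 and 479 on mesenchyme 1 (-1.70 ± 0.108). Mcm7 on mesenchyme 1 stood above P0 as well, whereas Mcm4, the member not called, stood at 1992 on mesenchyme 2, 3957 on mesenchyme 1 and 3072 in P0 (-0.99 ± 0.101). The polymerase subunit genes Pold1 and Pole fell (-1.84 ± 0.107 and -1.53 ± 0.0987), as did the cyclins Ccne1 and Ccne2 (-1.89 ± 0.0939 and -1.74 ± 0.141). Top2a, the topoisomerase of dividing cells, gave 794 and 849.9 on mesenchyme 2, against 2215 and 2520.2 on mesenchyme 1 (-1.52 ± 0.108). The mitotic kinesin Kif11, the kinase Plk1 and the checkpoint gene Bub1b fell (-1.64 ± 0.0907, -1.37 ± 0.101 and -1.49 ± 0.102), and Cenpa and Cdc20 were lower by under 2-fold (-0.44 ± 0.11 and -0.48 ± 0.0873). A dimmer Cdc20 probe was called lower (-1.64), and another was not called (-0.84).

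The promoters of Mcm6, Mcm3 and Top2a are printed because these genes fell together and hold several copies of one motif. The window, build and source are as for the promoters above, and capitals mark the CCAAT letters (ATTGG on the other strand) and, in Mcm6, the E2F letters TTTCGCGC (GCGCGAAA on the other strand).
Mcm6, chr1:128359656-128359955, minus strand: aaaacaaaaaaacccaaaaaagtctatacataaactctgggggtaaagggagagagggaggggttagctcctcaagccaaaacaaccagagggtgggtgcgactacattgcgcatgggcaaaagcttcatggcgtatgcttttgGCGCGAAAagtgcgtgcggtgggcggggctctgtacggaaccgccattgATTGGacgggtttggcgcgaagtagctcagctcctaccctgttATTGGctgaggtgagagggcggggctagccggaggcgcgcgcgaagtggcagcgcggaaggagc
Mcm3, chr1:20820263-20820562, minus strand: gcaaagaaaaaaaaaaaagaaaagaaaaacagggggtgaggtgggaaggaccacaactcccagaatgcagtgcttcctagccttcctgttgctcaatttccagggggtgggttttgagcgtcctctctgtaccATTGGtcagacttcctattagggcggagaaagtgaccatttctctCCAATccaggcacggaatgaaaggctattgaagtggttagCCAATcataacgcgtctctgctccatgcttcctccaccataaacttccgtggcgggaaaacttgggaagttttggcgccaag
Top2a, chr11:99024140-99024439, minus strand: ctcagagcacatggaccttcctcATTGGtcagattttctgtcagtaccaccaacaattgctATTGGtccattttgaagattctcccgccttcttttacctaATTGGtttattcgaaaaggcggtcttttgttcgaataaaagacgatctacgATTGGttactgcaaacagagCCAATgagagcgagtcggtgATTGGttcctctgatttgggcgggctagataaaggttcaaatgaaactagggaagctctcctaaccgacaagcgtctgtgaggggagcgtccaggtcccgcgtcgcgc
In Mcm6 the CCAAT letters stood 57 and 14 bases before the start, and the E2F letters 106 bases before it. In Mcm3 they were found 117, 72 and 32 bases before the start, and in Top2a at 6 positions between 227 and 58 bases before it. CCAAT on either strand stood in 67.2% of the 58 S phase and mitosis promoters, in 47.3% of the 719 genes called lower, in 31.5% of the 892 called higher and in 39.9% of all 6378. Among changes of at least 4-fold, it stood in 37.1% of the 97 genes lower, below the share of all 6378, and in 26.5% of the 234 higher. TTTCGCGC stood in 2.09% of the genes called lower, 0.448% of those called higher and 0.815% of all. A match is a run of letters and was not tested as a binding site.

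Histone genes, most of them of the replication-dependent clusters, fell too, in 20 of 39 measured members against 1 rise (median -1.03), and in 13 with 16 added to every intensity. H2ac24 gave 4114 and 3182 on mesenchyme 2, against 9197 and 8577 on mesenchyme 1, and 10150.1 and 10786 in P0 (-1.30 ± 0.134) and H2ac15 gave 1039 and 1059.7 on mesenchyme 2, against 3658 and 3486 on mesenchyme 1, and 4699 and 4286 in P0 (-1.77 ± 0.0915). Copies of these genes are nearly identical, so a probe may read several of them and the members are not independent. The rise was the linker histone H1f2 (1.72 ± 0.0965), and the replication-independent H3f3b was not called (0.20 ± 0.107). DNA methylation and Polycomb genes fell in part. Dnmt1, which copies methylation at replication, gave 326 and 372 on mesenchyme 2, against 965 and 960.1 on mesenchyme 1 (-1.47 ± 0.0998), and its partner Uhrf1 gave 1211 and 1252 on mesenchyme 2, against 5629 and 4884 on mesenchyme 1 (-2.09 ± 0.0998). Dnmt3l, the cofactor of new methylation, stood at 1820.2 on mesenchyme 2 and 4379.9 on mesenchyme 1 (-1.27 ± 0.107). Ezh2, the methyltransferase of Polycomb repressive complex 2, stood at 103 on mesenchyme 2, 435 on mesenchyme 1 and 183 in P0 (-2.07 ± 0.0996) and its partner Jarid2 at 20.8 on mesenchyme 2, 68.5 on mesenchyme 1 and 70.3 in P0 (-1.72 ± 0.213), while the core subunit gene Suz12 was not called (-0.80 ± 0.1). Of the 27 members 11 fell and 2 rose, the rises being Ring1 (1.29 ± 0.122) and the germ cell factor Taf7l (2.91 ± 0.108).

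Among genes of RNA processing, groups stood near the share of all features (11.5% lower) or above it, with no rise. The hnRNP genes fell in 4 of 14, the Ddx and Dhx RNA helicases in 5 of 36 (13.9%, near that share) and the Sf3 and Srsf splicing factors in 4 of 15, or 2 with 16 added. Hnrnpk gave 343 and 323 on mesenchyme 2, against 1058 and 1119.7 on mesenchyme 1, and 358 and 357 in P0 (-1.71 ± 0.0875), and Ddx5 gave 40.1 and 44.3 on mesenchyme 2, against 239 and 219.7 on mesenchyme 1, and 16.9 and 14.3 in P0 (-2.44 ± 0.116). In both, mesenchyme 1 stood above mesenchyme 2 and above P0. The bright Hnrnpab and Hnrnpc differed by less, -0.51 ± 0.0846 and -0.35 ± 0.0839. Ribosomal protein genes were nearly level. Of 58 cytosolic ones 0 rose and 3 fell (median -0.06), with summed levels of 314539 on mesenchyme 2 and 314883 on mesenchyme 1. The falls included Rps15a (-1.48 ± 0.101) and Rpl39l, a retrogene copy expressed in testis (-1.97 ± 0.14). Of 69 mitochondrial ones 2 rose and 2 fell (median 0.08), with 1 fall without mesenchyme 2 replicate 2.

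**Figure D5:**
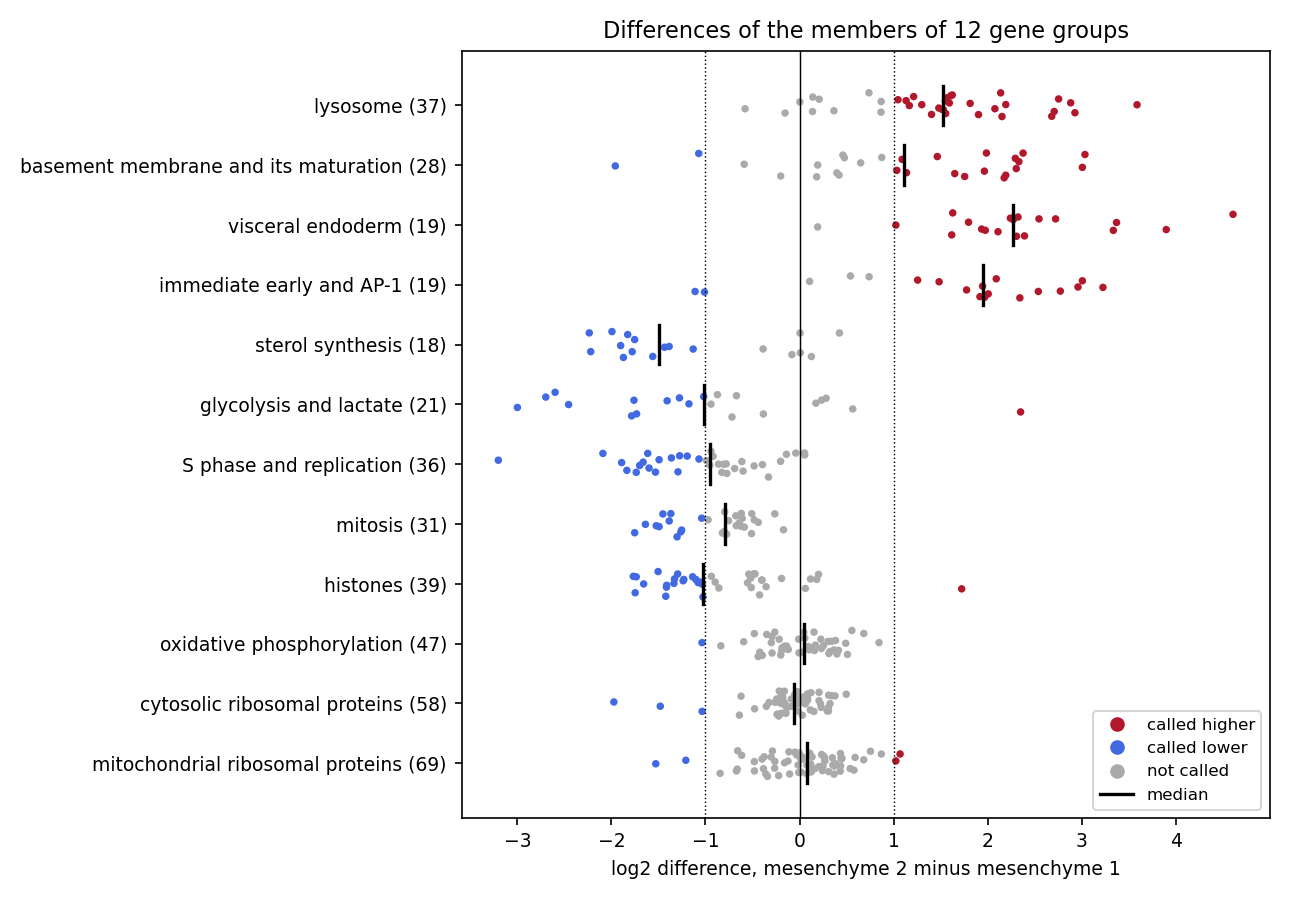
Log2 difference (mesenchyme 2 minus mesenchyme 1) of every measured member of 12 gene groups, with black bars at the group medians and dotted lines at 2-fold. Lysosome and visceral endoderm genes lie mostly to the right, sterol, glycolysis and S phase genes mostly to the left, and the medians of oxidative phosphorylation and of both sets of ribosomal protein genes lie within 0.08 of 0.

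Immune and lineage genes gave a mixed picture. B2m, the light chain of MHC class I, gave 3377 and 3312 on mesenchyme 2, against 393 and 389 on mesenchyme 1 (3.10 ± 0.0847), and the heavy chain gene H2-D1 stood at 63.4 on mesenchyme 2 and 25.3 on mesenchyme 1 (1.32 ± 0.139), or 1.92-fold and not called with 16 added. The interferon factor Irf1 gave 209 and 192 on mesenchyme 2, against 1338 and 1388 on mesenchyme 1 (-2.77 ± 0.0982), and Oasl2, Ifitm1 and Ddx58 fell (-2.33 ± 0.143, -1.95 ± 0.103 and -1.70 ± 0.143). Usp18, a protease induced by interferon, stood at 119 on mesenchyme 2, 45.1 on mesenchyme 1 and 358 in P0. Over the interferon and MHC list 3 of 19 rose and 5 fell. Trophoblast genes rose in 9 of 18 and fell in 0 (median 0.94) and rose in 4 with 16 added to every intensity. Their summed level was 2949 on mesenchyme 2, 2596 on mesenchyme 1 and 5113 in P0, so that P0 lay above both cultures. Signals of some members were low. Rhox6 stood at 78.3 on mesenchyme 2, 18.1 on mesenchyme 1 and 93.2 in P0. Tead4 stood at 82.7 on mesenchyme 2, 30.6 on mesenchyme 1 and 31.6 in P0. The endothelium list split, with Esam and the receptor gene Flt1 higher (3.64 ± 0.0953 and 2.72 ± 0.106) and Notch4, Robo4 and Vwf lower (-3.97, -3.04 and -2.17), 2 rises and 3 falls among 9. Of 26 actomyosin genes 7 rose and 2 fell. Acta1, skeletal actin, stood at 913 on mesenchyme 2 and 84.3 on mesenchyme 1 and Tnnc1, troponin C, at 291 on mesenchyme 2 and 50.6 on mesenchyme 1, whereas the smooth muscle and cardiac actins Actg2 and Actc1 fell (-2.27 ± 0.118 and -1.64 ± 0.227). Imprinted genes gave 4 rises and 2 falls among 15, with 1 rise when 16 was added, and the bright Igf2 was not called (0.32 ± 0.116).

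Cells of the co-culture could be carried over through the sort, so a list of mesenchyme and fibroblast genes was read beside these results. Its 12 measured members had summed levels of 7665 and 7412 on mesenchyme 2, against 6913 and 7411 on mesenchyme 1, and 5017 and 5460 in P0, whose culture condition was gelatin. Of them 2 rose, 1 fell and 9 were not called (median 0.02). The share of this list that was called is near the 25.4% of all features, whose median was 0.02 as well. The rises were Pdgfra, which stands on the parietal list too, and Timp3, and there were 4 rises without mesenchyme 1 replicate 1. Col5a1 fell, with 505 and 501 on mesenchyme 2, against 1332 and 1265 on mesenchyme 1, and 658 and 621 in P0. Acta2, smooth muscle actin, made up most of the sum, with 4749 and 4576 on mesenchyme 2, against 4057 and 4554 on mesenchyme 1, and 3058 and 3373 in P0 (0.12 ± 0.102). Thy1, of the 4 defining mesenchyme markers the one measured, stood at 38.5 on mesenchyme 2, 20.6 on mesenchyme 1 and 36.1 in P0 (0.90 ± 0.165). The part of carried-over cells in the differences above was not tested.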

How the data were processed

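Total RNA was amplified and biotin-labelled with the Illumina TotalPrep kit and read on 1-colour Illumina bead arrays, per the labels' protocols. All values come from the authors' deposited table of normalized intensities, which are linear and above 0. The submitters' processing notes name BeadStudio, with no version or role; how background, normalization and the choice of probes were handled is not given in the sources used here. Of 25697 probes in the deposited scanner table, 11097 (43.2%) have a normalized value. The scanner table's 12 value columns match no sample label by name and were not used, so no detection p-value entered and the depth of signal over background is unknown.

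In the platform annotation 10475 probes have 1 symbol, 0 have several and 622 have none. By Entrez identifier 10471 probes matched RefSeq genes (GRCm38.p6, names only), which updated 0 symbols. The brightest probe stood for each of the 2007 genes with several probes. Unnamed probes stayed in, giving 8396 features for 7774 named genes. Of 599 further probes of called genes, 451 were called the same way and 1, of Papola, the other way.

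The limma package, version 3.58.1 under R 4.3.3, fitted 1 mean for each of the 3 groups to the log2 values (lmFit, contrasts.fit and eBayes), with 3 residual and 3.81 prior degrees of freedom. P-values were two-sided. No filter and no pseudocount were used. P0 is given as levels, and its contrasts, which share its arrays, as counts. As a check of the code, the fit was also run on simulated data of the same size with independent noise. That run does not bear on the spread between cultures. Named are the 30 largest rises and the 30 largest falls among called genes with non-overlapping arrays (unnamed probes, clones and predicted genes left out). From the lists described, called members were picked as examples and not all are named, with up to 6 of the brightest uncalled ones. Also given is a fixed set (Sox17, Foxa2, Cxcr4, Gata4, Gata6, Sox7, Epcam, Cdh1, Pou5f1, Nanog, Sox2, Pdx1, Afp, Col1a1, Vim, Gapdh, Actb). Genes that differ least are otherwise not named. Members and lists were chosen with earlier results of these data known. Promoters are those of RefSeq (GRCm38.p6), the first listed per gene. Alternatives changed the added constant, the filter, the scaling, the probe rule, the arrays fitted, the test and the fold limit.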

Additional observations from a re-analysis of the deposited data

How the results depend on the processing

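Against 2132 calls as reported, adding 16 to every intensity left 1554 and adding 50 left 1042; there were 1127 by limma's treat test against a 2-fold change, 445 at a fold limit of 4 and 5851 with no fold limit. Calls numbered 1639 of 6605 features after dim probes were left out, 2153 with arrays centred on their medians, 2125 after quantile normalization, 2170 with all probes of a gene averaged and 2131 with the 4 passaged arrays alone. Leaving out each array in turn gave 2131 to 2166 calls and kept 93.7% to 100% of the 2132 in their direction; with a group left at 1 array, that array is assumed to vary like the others. The additions of 16 and 50 kept 72.9% and 48.9%, since an added constant lowers every ratio by construction. Centring shifted the median of all differences to -0.066 and gave 1040 rises and 1113 falls.

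The replicate numbers were not taken to pair the arrays, since replicate 1 minus replicate 2 correlated at 0.0107 between mesenchyme 2 and mesenchyme 1, -0.0073 between mesenchyme 2 and P0 and -0.00307 between mesenchyme 1 and P0. The fit with the replicate number as a block called 2131 and changed no call of a named gene.

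Of the 316 named genes, the sign turned in Actb, at -0.0653 with centring, -0.0076 after quantile normalization and -0.2744 over all its probes, in Acta2, at -0.2709 over all its probes, and in Papola, at 0.019 over all its probes, which were called in opposite directions. For Actb and Acta2 the cause was not tested. The number of members called moved by over 1.5 times in 17 of 58 gene groups with 16 added and in 26 with 50 added, where low signals limit the count. With 1 culture per mesenchyme, no alternative bears on the spread between cultures.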

Other observations

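Membrane and secretory gene families not described above were also read by symbol. Of 13 tetraspanins 7 rose and 0 fell (median 1.17): Tspan8, a tetraspanin of gut epithelium, gave 352 and 432 on mesenchyme 2, against 54.4 and 38.4 on mesenchyme 1 (3.09 ± 0.204), Cd9 gave 2256 and 2811 on mesenchyme 2, against 828 and 707 on mesenchyme 1 (1.72 ± 0.134) and Cd151, a partner of laminin-binding integrins, stood at 996 on mesenchyme 2 and 409 on mesenchyme 1 (1.29 ± 0.0857). Of 5 serpins 4 rose, among them Serping1, the inhibitor of complement C1, at 229 on mesenchyme 2 and 44.0 on mesenchyme 1 (2.38 ± 0.0864). The aquaporins rose in 3 of 3, with Aqp11 at 67.1 on mesenchyme 2 and 25.2 on mesenchyme 1 beside Aqp3 and Aqp8. Rab small GTPases, which direct vesicle traffic, were called in 21.1% against 25.4% of all features, 6 rises and 2 falls among 38, with Rab6b at 378 on mesenchyme 2 and 35.4 on mesenchyme 1 (3.42 ± 0.162) and Rab27a at 102 on mesenchyme 2 and 257 on mesenchyme 1 (-1.33 ± 0.0935). Solute carriers rose in 24 and fell in 11 of 142, a called share of 24.6% that is near that of all features.

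Proteasome subunits and translation factors held fewer calls than all features. Proteasome subunits fell in 3 of 34 (8.82%, against 11.5% of all features) and rose in 0 (median -0.12). Of these, Psmb10, a subunit of the immunoproteasome, gave 34.6 and 31.7 on mesenchyme 2, against 223 and 225 on mesenchyme 1 (-2.76 ± 0.0893), whereas B2m, which acts with it in antigen presentation, rose. Translation factors rose in 1 and fell in 2 of 38 (7.89% called). Of 3 measured genes on the list of pancreas and endocrine genes 1 rose and 0 fell. The rise was Sct, the hormone secretin (1.96 ± 0.127). It gave 295 and 291 on mesenchyme 2, against 84.6 and 66.8 on mesenchyme 1, and 442 and 478 in P0. Rfx6, the factor of endocrine pancreas and gut described above, is not on that list and rose too (3.59). Papola, the nuclear poly(A) polymerase, was the called gene whose probes were called in opposite directions, -1.23 for the brightest probe and 1.27 for another, and it was singled out after its values were seen.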
